A study of Gallus gallus with 9 samples.

Results

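HOX genes were followed here through chick embryo tissue cut at the level of the midbrain, as a check of the axial level that the tissue holds. Members were all genes of the deposited tables whose symbol is HOX followed by a cluster letter from A to D and a paralog number, which gave 31 of 16880 genes. They were 11 genes of the HOXA cluster, 9 of HOXB, 3 of HOXC and 8 of HOXD. The samples were wild-type, untreated chick embryos profiled by droplet single-cell RNA sequencing of the transcripts' 3' ends, from slices at the midbrain level that held every germ layer and were pooled from several embryos for each sample. There were 2 libraries each at HH5, when gastrulation ends, and at 1ss, 4ss and 7ss, stages named by their 1, 4 or 7 somite pairs, and 1 library at HH11, a later stage of neural tube closure. The study calls the 2 samples of a stage independent, and neither it nor the labels say more about how they were separated. The p-values of the stage comparisons below thus measure the spread between these samples, which may in part be technical. Those of comparisons between cells of the same libraries rest on the differences within each library.

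HOX genes encode homeodomain transcription factors that give cells a position along the head-to-tail axis. They lie in clusters, and their order along a cluster follows the order in which they come on in time and the order of their front limits in the body: genes with low paralog numbers reach the hindbrain, those with middle numbers the neck and trunk, and those with high numbers the rear trunk, tail and limbs. The forebrain and midbrain lie ahead of all these limits and are marked by OTX2, while EN1 and EN2 mark the junction of midbrain and hindbrain. CDX4, a caudal homeodomain factor, acts upstream of HOX genes at the rear of the embryo.

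After barcodes called as doublets, or outside limits on gene number and mitochondrial share, were left out, 93938 of 107749 cell barcodes remained, with 5287 to 18982 cells and 9862155 to 61506511 unique molecular identifiers (UMIs, each standing for 1 captured transcript) in a library. Cells were clustered without the HOX genes and each cluster was named by germ layer markers. The 4ss replicate 2 library stood apart: 1.24% of its cells were mesoderm-like, against 24.4% in 4ss replicate 1. Its median mitochondrial share was 12.2%, against 2.76% to 6.40% in the other libraries, and its median depth of 1163 UMIs was the lowest. Unnamed clusters took 19.98% of its cells and 43.8% of the HH11 cells. The mesoderm-like cells came mostly from different clusters in different libraries (cluster 12 in HH5 replicate 1, cluster 3 in HH5 replicate 2, both 1ss libraries and 4ss replicate 1, cluster 11 in 4ss replicate 2 and at 7ss, and cluster 14 at HH11). At most 115 barcodes, 0.683% of the smaller library, were shared by any 2 libraries. OTX2 was between 53.7 and 79.2 CPM (counts per 1000000 UMIs of the library or cell class) in all 9 libraries, while EGR2, a hindbrain gene, was between 0.0308 and 1.01 CPM.

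The HOX genes were sparse. The kept cells held 1286 HOX UMIs, and 804 cells, or 0.856% of them, had at least 1. Of the 31 genes, 28 had a UMI in a kept cell, and HOXB13, HOXC10 and HOXD10 had none. HOXB5, a trunk gene, alone held 562 UMIs, or 43.7% of the total, in 298 cells of all 9 libraries. HOXA2 (121 UMIs), HOXD13 (101), HOXA9 (99) and HOXA3 (78) followed. HOXA2 and HOXA3 are hindbrain and pharyngeal genes, HOXA9 belongs to the rear trunk, and HOXD13 is the end gene of its cluster, known for the tail and the tips of the limbs. A further 14 genes, led by HOXA13 (49), HOXA7 (44) and HOXA5 (37), had 4 to 49 UMIs, and 9 genes had 1 to 3. All 11 UMIs of HOXB9 were in 4ss replicate 2. In the RefSeq annotation of GRCg7b, 30 of the 31 symbols were found and 12 of the genes overlap another HOX gene, among them HOXB3 with HOXB4, HOXB5 and HOXB6, HOXA3 with HOXA4, HOXA5 and HOXA6, HOXA9 with HOXA10, and HOXD3 with HOXD4. How the counts were divided between such neighbours is uncertain.

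The summed HOX level differed between replicates of a stage as much as between the first 3 stages. It was 4.06 and 2.74 CPM in the HH5 libraries, 1.43 and 9.63 CPM in the 1ss libraries, 10.9 and 5.60 CPM in the 4ss libraries, 0.797 and 0.118 CPM in the 7ss libraries and 0.895 CPM in the HH11 library. Both 7ss libraries and the HH11 library were lower than all 6 earlier libraries, and the earlier stages overlapped one another. The place of HH11 rests on the cell filter: over all filtered barcodes it was at 2.08 CPM, above 1ss replicate 1 at 1.71 CPM, while both 7ss libraries stayed lowest at 0.895 and 0.213 CPM. The stage means were 3.40 ± 0.938 CPM in the HH5 libraries, 5.53 ± 5.80 in the 1ss libraries, 8.26 ± 3.77 in the 4ss libraries and 0.457 ± 0.480 in the 7ss libraries (SD, n = 2 each). These levels rest on 250 and 27 HOX UMIs at HH5, 36 and 232 in the 1ss libraries, 393 and 273 in the 4ss libraries, 40 and 6 in the 7ss libraries and 29 in the HH11 library. The exact Poisson 95% intervals, which cover counting error only, did not overlap between the 1ss replicates (1.00 to 1.98 and 8.43 to 11.0 CPM) or between the 4ss replicates (9.87 to 12.1 and 4.95 to 6.30 CPM). A single cell held 17 of the 40 HOX UMIs of 7ss replicate 1. In a whole-library sum, fewer HOX-expressing cells and fewer HOX transcripts in each cannot be told apart.

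**Figure D1:**
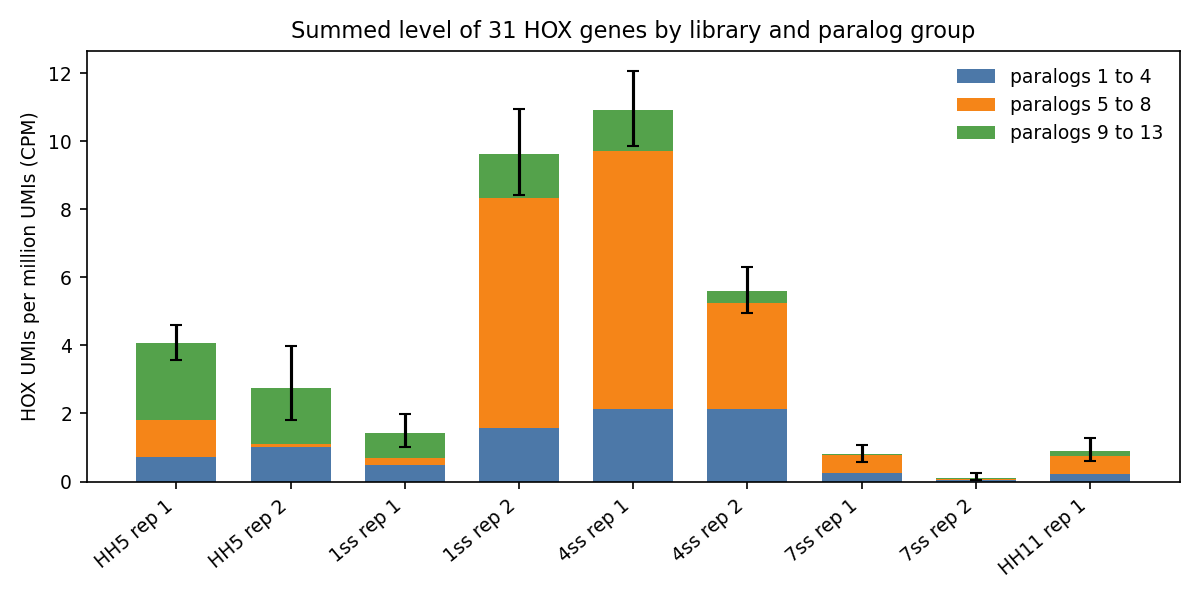
Summed level of the 31 HOX genes (CPM) in each library, in stage order, as bars stacked by paralog number, with exact Poisson 95% intervals of the sum for counting error. In these kept cells the 7ss and HH11 libraries lie at 0.118 to 0.895 CPM, under the 1.43 to 10.9 CPM of the earlier libraries, which for HH11 does not hold over all filtered barcodes.

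The shares of cells with a HOX UMI had the same order of stage means. Because deeper cells yield more detections, each cell was thinned to 2000 UMIs by random draws and shallower cells, 30.8% to 68.4% of a library, were left out. At this depth 0.676% and 0.572% of cells at HH5 had a HOX UMI, 0.252% and 1.48% in the 1ss libraries, 1.52% and 1.03% in the 4ss libraries, 0.0545% and 0.0342% in the 7ss libraries and 0.115% in the HH11 library. The 7ss shares stand for 3 of 5509 and 2 of 5841 cells. Before thinning the shares were 1.53% and 0.511% in the HH5 libraries, 0.590% and 1.92% in the 1ss libraries, 2.21% and 1.09% in the 4ss libraries, 0.118% and 0.0422% in the 7ss libraries and 0.269% in the HH11 library. Barcodes with 1 to 100 UMIs, taken as empty droplets that hold free RNA, had summed HOX levels of 5.48 and 4.55 CPM in the HH5 libraries, 0.707 and 10.5 in the 1ss libraries, 7.50 and 6.02 in the 4ss libraries, 0.390 and 0.361 in the 7ss libraries and 3.62 in the HH11 library. These rest on 1 to 29 HOX UMIs a library. The kept cells were above the empty droplets of their own library in 3 of 9, namely 1ss replicate 1, 4ss replicate 1 and 7ss replicate 1.

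Single genes were compared between stages on the UMI sums of whole libraries with edgeR's quasi-likelihood test, each later stage against HH5, with p-values adjusted by Benjamini-Hochberg over all 12541 genes tested and a threshold of 0.05. Of the 31 HOX genes, 9 passed the filter on low counts, among them HOXA2, HOXA3, HOXA9, HOXA13, HOXB5 and HOXD13. At 1ss, 0 of these 9 passed the test, where 0.0558% of all genes did, and 1 had an unadjusted p under 0.05. At 4ss, 0 of 9 passed, where 0.662% of all genes did, and 2 had an unadjusted p under 0.05. DESeq2 also called 0 at both stages. At 7ss, 3 of 9 were lower than at HH5, HOXA9 and HOXD13 among them, where 5.30% of all genes were called lower and 9.35% were called in either direction. A gene could pass the filter through its HH5 level alone, so the 3 calls are given for the single genes and not as support for the family. The cell makeup moved with the stage: mesoderm-like cells were 4.32% and 4.18% of the 7ss libraries, against 10.6% and 23.7% of the HH5 libraries, and endoderm-like cells were 0.299% and 0.380% of the 7ss libraries, against 15.4% and 10.3% of the HH5 libraries. Its part in the 7ss differences was not tested.

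HOXA9 (ENSGALG00000028983) had 70 and 5 UMIs in the HH5 libraries (1.14 and 0.507 CPM), 1 and 7 in the 1ss libraries, 14 and 2 in the 4ss libraries, and 0 in both 7ss libraries and at HH11. The 7ss libraries together held 0 UMIs, against 75 at HH5 (edgeR adjusted p = 0.0231, lower in 2 of 2 libraries). The pooled HH5 level was 35.4-fold the floor of 3 counts over the 7ss group. That ratio leaves out the spread at HH5, where HH5 replicate 1 gave 70 of the 75 UMIs.

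HOXD13 (ENSGALG00000032039) had 44 and 3 UMIs in the HH5 libraries (0.715 and 0.304 CPM), 14 and 16 in the 1ss libraries, 17 and 3 in the 4ss libraries, 0 and 1 in the 7ss libraries and 3 in the HH11 library. With 1 UMI at 7ss, against 47 at HH5, its ratio of levels was 0.0151, with a counting interval of 0.000373 to 0.0880 (edgeR log2 fold change -5.40 ± 1.15 SE, adjusted p = 0.0250). HOXA13, the end gene of the HOXA cluster, had 1 UMI in each 7ss library, against 18 and 5 at HH5, and did not pass (adjusted p = 0.0595). No HOX gene was called when either HH5 library or either 7ss library was left out, and only HOXA9 was called without 1ss replicate 2. With each of the 8 libraries left out in turn, the log2 fold change at 7ss was -8.55 to -7.06 for HOXA9, which had no UMI there. For HOXD13 it was -7.34 to -4.39.

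HOXB5 (ENSGALG00000034907), the most abundant member, did not pass in any stage comparison. It had 49 and 1 UMIs in the HH5 libraries (0.797 and 0.101 CPM), 3 and 144 in the 1ss libraries (0.119 and 5.98 CPM), 232 and 102 in the 4ss libraries (6.45 and 2.09 CPM), 21 and 1 in the 7ss libraries (0.418 and 0.0197 CPM) and 9 in the HH11 library (0.278 CPM). Both 4ss libraries were above both HH5 libraries, at 4.27 ± 3.08 CPM in the 4ss libraries and 0.449 ± 0.492 CPM in the HH5 libraries (SD, n = 2 each), with a log2 fold change of 2.90 ± 1.36 SE and an edgeR adjusted p of 0.341. The 7ss libraries overlapped the HH5 libraries (adjusted p = 0.577). The replicates of every stage with 2 libraries differed several-fold in HOXB5.

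**Figure D2:**
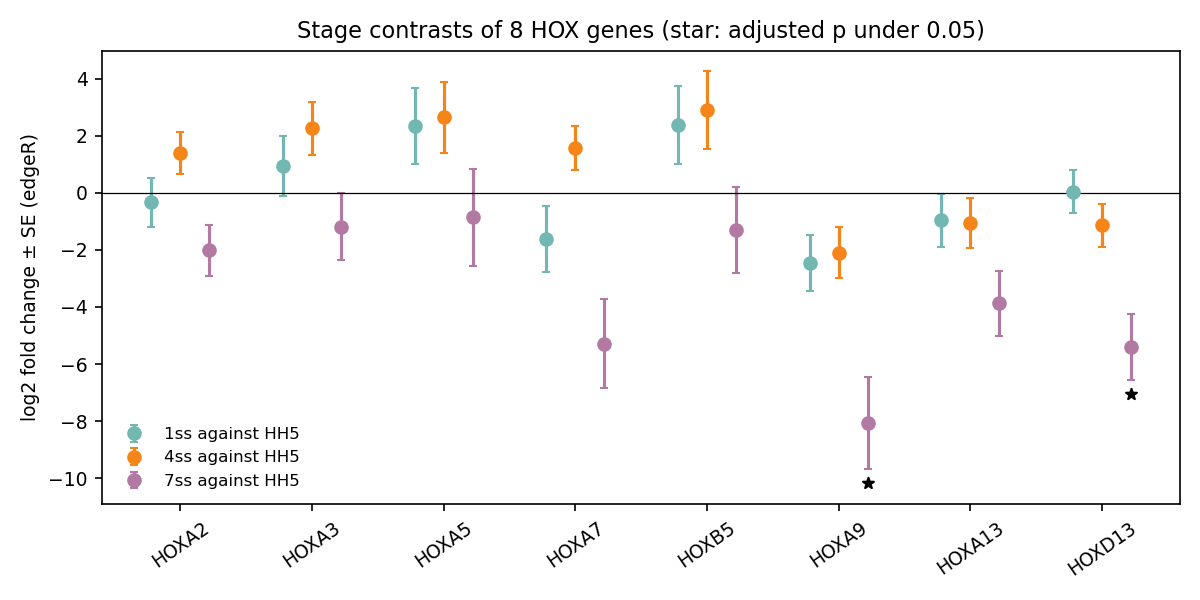
Log2 fold changes (± SE) of 8 of the 9 HOX genes that passed the count filter, at 1ss, 4ss and 7ss, each against HH5, from edgeR on whole-library sums, with a star for an adjusted p under 0.05. At 7ss HOXA9 and HOXD13 passed, and HOXA9 had 0 UMIs there, so its fitted value depends on the prior count.

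The makeup of the HOX UMIs differed between libraries of early and later stages. Genes with paralog numbers 9 to 13 held 55.2% and 59.3% of the HOX UMIs of the HH5 libraries, 52.8% and 13.4% in the 1ss libraries, 10.9% and 6.23% in the 4ss libraries, 2.5% and 33.3% in the 7ss libraries and 17.2% in the HH11 library. The HH5 libraries and 1ss replicate 1 were above all other libraries, and both 4ss libraries were below both 1ss libraries. The 33.3% of 7ss replicate 2 is 2 of 6 UMIs. Numbers 5 to 8 held 26.8% and 3.70% in the HH5 libraries, 13.9% and 70.3% in the 1ss libraries, 69.5% and 55.7% in the 4ss libraries, 67.5% and 33.3% in the 7ss libraries and 58.6% in the HH11 library, and the 1ss replicates lay on either side of HH5 replicate 1. Numbers 1 to 4, the hindbrain genes, held 16.4% to 38.1% of HOX UMIs in the 9 libraries. No test was made of these shares. HOXA2, the most counted gene of low number, had UMIs in every library, with 18 and 5 UMIs in the HH5 libraries, 5 and 9 in the 1ss libraries, 18 and 57 in the 4ss libraries, 7 and 1 in the 7ss libraries and 1 in the HH11 library.

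Most HOX UMIs were outside the ectoderm. The mesoderm-like cells, 10.3% of kept cells, held 764 HOX UMIs or 59.4% of the total, at 13.4 CPM. The endoderm-like cells, 4.04% of kept cells, held 107 UMIs at 6.52 CPM. The unnamed clusters held 200 UMIs at 11.4 CPM. The ectoderm-like cells (the clusters named neural crest-like, neural-like or non-neural ectoderm-like), 74.8% of kept cells, held 215 HOX UMIs, or 16.7% of the total, at 0.868 CPM.

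Within single libraries the mesoderm-like cells were above the ectoderm-like cells in 7 of 9, with non-overlapping intervals in 6. In the mesoderm-like cells the summed HOX level was 12.99 and 7.29 CPM in the HH5 libraries, 5.79 and 29.1 in the 1ss libraries, 38.2 and 1.01 in the 4ss libraries, 2.74 and 0 in the 7ss libraries and 1.45 in the HH11 library. In the ectoderm-like cells it was 1.54 and 0.909 CPM in the HH5 libraries, 0 and 0.955 in the 1ss libraries, 0.625 and 2.47 in the 4ss libraries, 0.176 and 0.0729 in the 7ss libraries and 0.424 in the HH11 library. The 2 libraries in which mesoderm-like cells were not higher were 4ss replicate 2, with 3 HOX UMIs in its mesoderm-like cells, and 7ss replicate 2, with 0. The ectoderm-like cells of 1ss replicate 1 held 0 HOX UMIs among 18594081, which allows up to 0.161 CPM.

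The ectoderm-like level was below that of the empty droplets in 9 of 9 libraries, at 0% to 45.1% of it, and the upper end of its interval was below as well. The empty-droplet level of 1ss replicate 1 and of both 7ss libraries rests on 1 or 2 UMIs. How much of the ectoderm-like HOX count was free RNA was not tested, and no HOX expression is read from it. The mesoderm-like level was above the empty-droplet level in 6 libraries, and the lower end of its interval was above it in 5 of them (HH5 replicate 1, both 1ss libraries, 4ss replicate 1 and 7ss replicate 1). In 7ss replicate 1 a single cell held 17 of the 22 HOX UMIs of the mesoderm-like cells. The endoderm-like level, 6.18 and 4.29 CPM in the HH5 libraries, 4.49 and 9.46 in the 1ss libraries and 8.55 CPM in 4ss replicate 1, had intervals that included the empty-droplet level in all of these but 1ss replicate 1. In 4ss replicate 2 most HOX UMIs were in an unnamed cluster of 6285 cells led by ACTA2, MYL2 and TNNT2, genes of contractile and heart muscle, together with LMO2, a gene of blood and vessel precursors. The unnamed clusters held 173 of that library's HOX UMIs, or 63.4%, at 24.3 CPM.

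**Figure D3:**
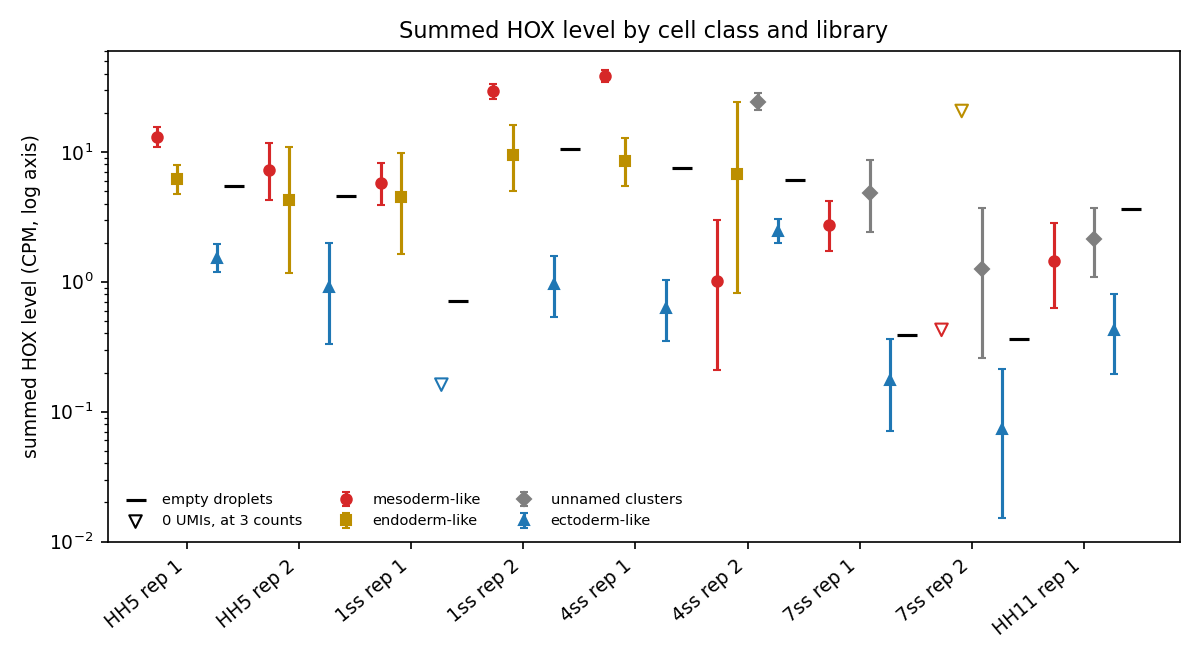
Summed HOX level (CPM, log axis, with exact Poisson 95% intervals) of the mesoderm-like, endoderm-like, unnamed and ectoderm-like cells of each library, for classes of at least 50 cells, with dashes for empty droplets and open triangles at 3 counts where a class had 0 HOX UMIs. The mesoderm-like cells reach 29.1 and 38.2 CPM in 1ss replicate 2 and 4ss replicate 1, and the ectoderm-like cells lie under the empty droplets in every library.

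The germ layers were also compared gene by gene, with the library as a block. None of the 31 HOX genes passed the filter on low counts in the mesoderm-like comparison (10003 genes tested) or in the endoderm-like comparison (9733 genes tested). Without the filter, 25 HOX genes could be tested in mesoderm-like against ectoderm-like cells of 8 libraries, and 9 were higher in mesoderm-like cells, where 13.9% of all 15396 genes were. HOXB5 had 420 UMIs (8.16 CPM) in mesoderm-like cells and 45 (0.199 CPM) in ectoderm-like cells, a log2 fold change of 4.57 (edgeR adjusted p = 0.000372, higher in 6 of 8 libraries). Of those 420 UMIs, 137 came from 1ss replicate 2 and 225 from 4ss replicate 1. HOXD13 had 57 UMIs in mesoderm-like cells and 11 in ectoderm-like cells (log2 fold change 4.04, adjusted p = 0.000151, higher in 6 of 8), and HOXA9 had 48 and 19 (log2 fold change 3.21, adjusted p = 0.000741, higher in 5 of 8). HOXA2, HOXA3, HOXA4, HOXA5, HOXA13 and HOXB2 were called as well, with log2 fold changes of 2.54 to 4.23. HOXA3 was higher in 4 and lower in 4 of the 8 libraries and HOXA13 higher in 4 and lower in 2, while the other 4 were higher in 5 or 6 and lower in 1.

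In ectoderm-like sums by stage no HOX gene passed the filter. Without it 2 of 21 were lower at 7ss than at HH5, where 7.78% of all genes were, and nothing about the family is read from this count. HOXA9 was among the 2 (edgeR adjusted p = 0.0220), and all 16 of its ectoderm-like UMIs at HH5 were in HH5 replicate 1. These ectoderm-like levels lie under the empty-droplet level given above. HOXB5 had 4 UMIs in endoderm-like cells and 45 in ectoderm-like cells of the 7 libraries compared, at 0.245 and 0.241 CPM (log2 fold change 0.45, adjusted p = 0.779).

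The HOX UMIs counted in endoderm-like cells were mainly of genes of high paralog number. Their summed level had intervals that included the empty-droplet level in both HH5 libraries, 1ss replicate 2 and 4ss replicate 1. How much of this count was free RNA was not tested. Without the filter, 24 HOX genes could be tested in endoderm-like against ectoderm-like cells, and 6 were higher in endoderm-like cells, where 10.4% of all 15230 genes were. HOXD13 had 29 UMIs (1.78 CPM) in endoderm-like cells and 11 (0.0589 CPM) in ectoderm-like cells (log2 fold change 4.00, edgeR adjusted p = 8.86e-05). HOXA9 had 31 and 19 UMIs (3.53, adjusted p = 0.000707) and HOXA13 20 and 8 (4.20, adjusted p = 0.000478). HOXD13 and HOXA9 were each higher in 4 and lower in 1 of the 7 libraries, and HOXA13 was higher in 5 and lower in 1. HH5 replicate 1 alone gave 22 of the 29 HOXD13 UMIs, 19 of the 31 HOXA9 UMIs and 8 of the 20 HOXA13 UMIs. HOXA3, HOXA4 and HOXD4 were called on 6, 2 and 4 endoderm-like UMIs. They were higher in 4, 1 and 3 libraries and lower in 2, 1 and 2. Paralogs 9 to 13 held 84 of the 107 HOX UMIs of endoderm-like cells, or 78.5%, and 128 of the 764 of mesoderm-like cells, or 16.8%. In the libraries of HH5 the shares were 88.1% and 100% in endoderm-like cells and 44.8% and 64.7% in mesoderm-like cells. At 1ss they were 83.3% and 46.2% in endoderm-like cells and 46.7% and 10.8% in mesoderm-like cells, and in 4ss replicate 1 they were 73.9% and 6.48%. The endoderm-like share was the higher in each of these 5 libraries. These endoderm-like shares rest on 59 and 4 HOX UMIs in the HH5 libraries, 6 and 13 in the 1ss libraries and 23 in 4ss replicate 1. The mesoderm-like shares rest on 125 and 17, 30 and 204, and 355. It was not higher in 4ss replicate 2, where the 2 classes held 2 and 3 HOX UMIs. No test was made of these shares.

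**Figure D4:**
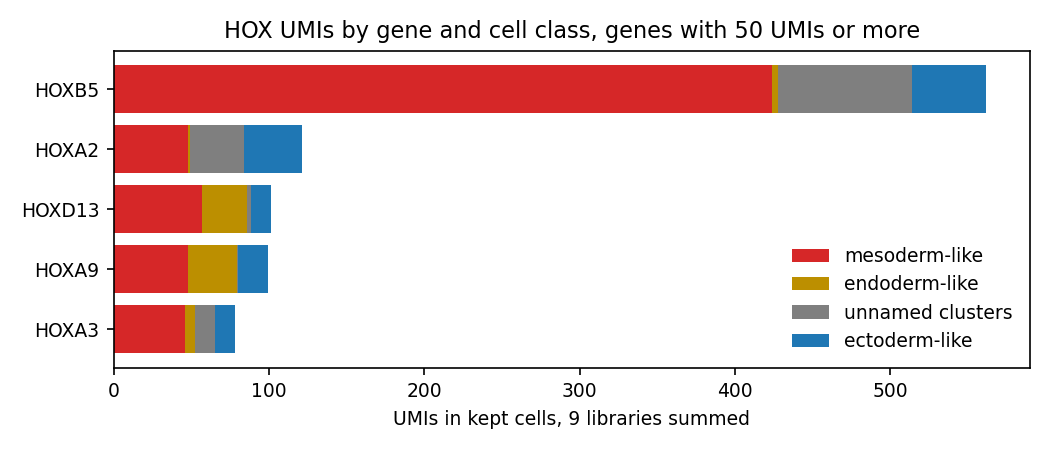
UMIs of the 5 HOX genes with 50 UMIs or more in kept cells, summed over the 9 libraries, as bars divided among mesoderm-like, endoderm-like, unnamed and ectoderm-like cells. HOXB5 is 75.4% mesoderm-like, and HOXA9 and HOXD13 have 31 and 29 endoderm-like UMIs.

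A small number of cells carried much of the signal. There were 96 cells with 3 or more HOX UMIs, and they held 480 of the 1286 UMIs. Of these, 80 were mesoderm-like, 13 were in the unnamed cluster led by ACTA2, 2 were endoderm-like and 1 was ectoderm-like. They were 12 cells of HH5 replicate 1, 24 of 1ss replicate 2, 44 of 4ss replicate 1, 12 of 4ss replicate 2, 3 of 7ss replicate 1 and 1 of HH11, and the other 3 libraries had none. All 12 from 4ss replicate 2 were in the unnamed cluster. The most HOX UMIs in a cell were 17 in 7ss replicate 1, 16 in 4ss replicate 1 and 14 in 1ss replicate 2. Their median depth was 9526.5 UMIs, above the library medians of 1163 to 4615. Cells with 3 HOX UMIs or more held 57.5% of HOXB5 UMIs, 25.3% of HOXA9 UMIs, 9.92% of HOXA2 UMIs and 5.94% of HOXD13 UMIs. A gene's own UMIs count towards the 3. HOXB5 had up to 15 UMIs in a cell and HOXA9 up to 5, while HOXA2 and HOXD13 had at most 2. The shares thus depend on the rule that chose the cells, and no difference between the genes is read from them.

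In 3 libraries a higher share of cells with HOXB5 than of cells without it also held another HOX gene. Among mesoderm-like cells thinned to 2000 UMIs, 8 of 27 HOXB5 cells of 1ss replicate 2 (29.6%) had a UMI of another HOX gene, against 11 of 881 cells without HOXB5 (1.25%). In 4ss replicate 1 it was 10 of 44 (22.7%) with HOXB5 and 21 of 1163 (1.81%) without, and in HH5 replicate 1 it was 2 of 6 with and 18 of 1202 without. The other libraries had at most 2 such HOXB5 cells. Cells of a library are not replicates, and the counts are given with no test.

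The mesoderm-like cells with a HOX UMI were compared with those without, each cell thinned to 2000 UMIs, on sums of at least 20 cells, in the 3 libraries that reached this number. They had 24 cells with a HOX UMI and 1184 without in HH5 replicate 1, 38 and 870 in 1ss replicate 2, and 65 and 1142 in 4ss replicate 1. Both groups were set after thinning, so a cell that lost all its HOX UMIs in the thinning counts as without. Before thinning, with shallower cells included, 69, 86 and 168 mesoderm-like cells of these libraries held a HOX UMI. The minimum was lowered after the data were seen, since only 2 libraries had 30 such cells. The HOX genes themselves were left out, since they chose the cells. With the library as a block, edgeR called 107 of 6053 genes, or 1.77%, of which 50 were higher (0.826% of genes) and 57 lower (0.942%) in the cells with a HOX UMI. Each of the 3 libraries came from a different stage, so these p-values do not measure the spread between replicates of a stage. They rest on UMIs summed over cells, and cells of a library are not replicates. Without the library block 14 genes were called.

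CDX4 had the largest rise among the genes named by rule (the largest changes among genes with a symbol, in the same direction in all 3 libraries and at 20 CPM or more in a group). It was at 104, 224 and 169 CPM in cells with a HOX UMI of HH5 replicate 1, 1ss replicate 2 and 4ss replicate 1, and at 4.65, 5.17 and 13.1 CPM in cells without, a log2 fold change of 4.23 ± 0.40 SE (edgeR adjusted p = 9.77e-23). The CDX4 levels with a HOX UMI rest on 5, 17 and 22 UMIs. MSX1, a homeodomain factor of lateral and dorsal tissues under BMP control, was at 334, 1146 and 1632 CPM with and 70.1, 134 and 201 CPM without (log2 fold change 2.89 ± 0.15 SE, adjusted p = 4.89e-77). MSX2, its relative, was at 208, 211 and 185 CPM with and 34.2, 33.3 and 47.7 CPM without (2.24 ± 0.30 SE, adjusted p = 2.79e-11). SP5, a Wnt target of the caudal zone, was at 83.4, 277 and 254 CPM with and 45.6, 34.5 and 55.6 CPM without (2.20 ± 0.28 SE, edgeR adjusted p = 6.18e-12). The SP5 levels with a HOX UMI rest on 4, 21 and 33 UMIs. The rule itself required these 4 genes to change the same way in all 3 libraries. They passed in 7 of 7 alternatives, which reuse cells of the same libraries. ARHGAP22 and ALPK3 rose on 1 to 7 UMIs a library (log2 fold changes 3.04 and 2.45, adjusted p = 0.0267 and 0.0476) and passed in 2 of 6 alternatives.

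The 6 largest falls named by the rule were POMC, TBXT, METTL6, SERTM1, TRANK1 and ADGRL2. POMC, the precursor of pituitary hormones, had 0 UMIs in cells with a HOX UMI of all 3 libraries, and 61.7, 428 and 284 CPM in cells without (edgeR adjusted p = 1.47e-25). Its pooled level without was 20.4-fold the floor of 3 counts over the cells with a HOX UMI. Such ratios leave out the spread between libraries. TBXT, which marks the primitive streak and notochord, was likewise at 0 with, against 56.2, 94.3 and 25.4 CPM without (edgeR adjusted p = 0.000298). Its pooled level without was 4.70-fold that floor. METTL6, SERTM1 and TRANK1 were also at 0 with, and their pooled levels without were 3.48, 3.36 and 2.79-fold the floor. ADGRL2 had a log2 fold change of -3.60 (edgeR adjusted p = 0.0126). These last 4 passed in at most 3 of 7 alternatives, TBXT in 4 of 7 and POMC in 4 of 6.

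**Figure D5:**
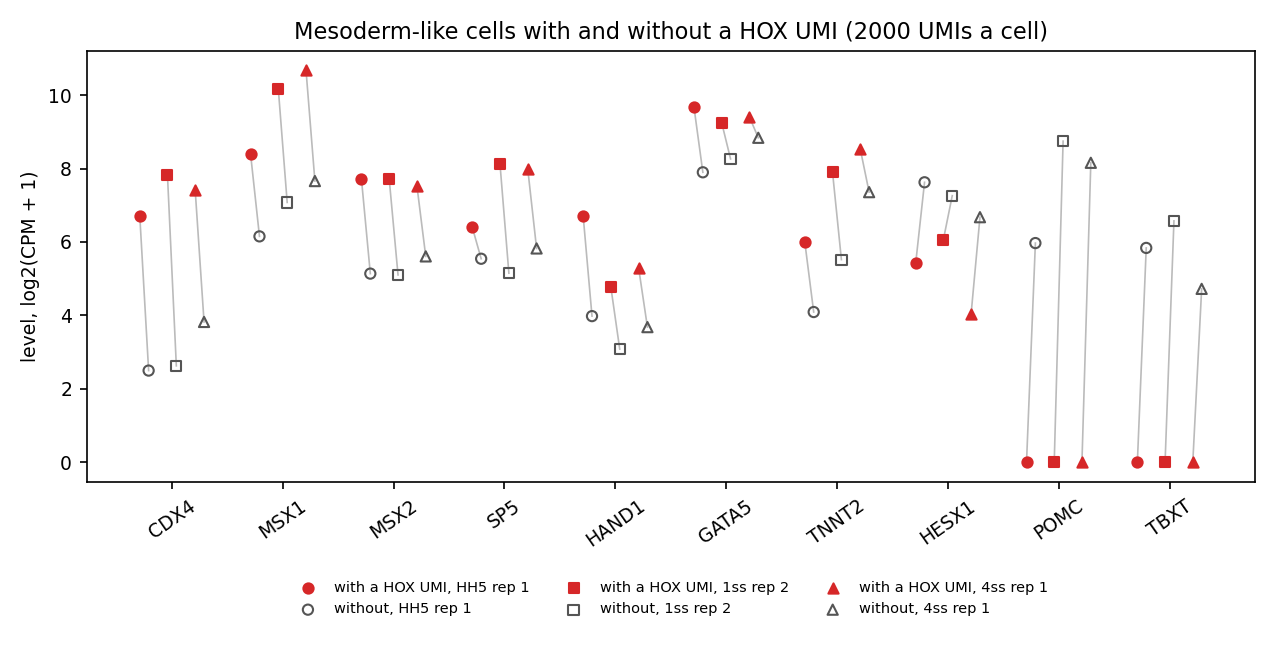
Levels, as log2(CPM + 1), of 10 genes called in mesoderm-like cells with a HOX UMI (filled) and without (open), joined within HH5 replicate 1, 1ss replicate 2 and 4ss replicate 1, each cell thinned to 2000 UMIs. CDX4, MSX1, MSX2 and SP5 are higher with a HOX UMI in each library, and POMC and TBXT are at 0 with one.

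Gene lists drawn up for position and tissue were read in the same comparison, in which the median log2 fold change of all genes tested was -0.08. Of the 20 caudal zone genes 4 could be tested: CDX4 and SP5 were higher and TBXT was lower in cells with a HOX UMI. Of the 17 genes of lateral plate and heart 13 could be tested, with a median of 1.05. In this list GATA5 (log2 fold change 0.93, edgeR adjusted p = 3.59e-07), GATA6 (1.05, 0.0219), HAND1 (2.05, 0.0476) and TNNT2 (1.53, 1.14e-06) were higher. GATA5, GATA6 and HAND1 are transcription factors of lateral plate, heart and gut wall, and TNNT2 is a protein of the contractile fibre. NKX2-5, a heart gene, was lower (-1.53, 0.00209, lower in 2 of 3 libraries). GATA5 and TNNT2 passed in 6 of 7 alternatives, GATA6 in 4 of 7 (adjusted p up to 0.996), NKX2-5 in 3 of 7 (up to 0.930) and HAND1 in 1 of 7 (up to 0.482). The list thus held genes that moved in both directions.

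Of the 18 forebrain and midbrain genes 3 could be tested, and HESX1, a factor of the front neural plate, was lower (-1.99, edgeR adjusted p = 0.000112, passing in 5 of 7 alternatives). None of the 2 tested hindbrain genes, 7 tested retinoic acid genes, 5 tested HOX cofactors of the PBX and MEIS families or 2 tested paraxial mesoderm genes passed, with median log2 fold changes of -0.56, -0.39, -0.24 and -1.19. With the unnamed cluster led by ACTA2 added, which brought in 43 cells with a HOX UMI of 4ss replicate 2, 137 genes were called and CDX4 was still higher (log2 fold change 4.36). The comparison of ectoderm-like cells with and without a HOX UMI was not made, since at most 18 cells of a library held one after thinning.

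Genes beside the HOX clusters were looked up in the order of the RefSeq annotation of GRCg7b after these values were seen. SKAP2, which flanks the HOXA cluster, was at 20.8, 171 and 393 CPM in cells with a HOX UMI and 40.5, 54.02 and 95.4 CPM in cells without (log2 fold change 1.68 ± 0.27 SE, edgeR adjusted p = 1.08e-07, higher in 2 of 3 libraries, called in 4 of 7 alternatives). MTX2, which flanks HOXD, had a log2 fold change of -0.14 (adjusted p = 0.968).

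The CDX4 level of whole libraries was at 4.34 and 0.304 CPM in the HH5 libraries, 0.558 and 5.73 in the 1ss libraries, 6.75 and 1.78 in the 4ss libraries, 0.139 and 0 in the 7ss libraries and 0.216 in the HH11 library. Its highest 3 libraries, 4ss replicate 1, 1ss replicate 2 and HH5 replicate 1, were those with mesoderm-like cells at 12.99 to 38.2 HOX CPM. EN1, by comparison, was at 1.11 and 0.304 CPM in the HH5 libraries, 1.31 and 3.53 in the 1ss libraries, 5.98 and 0.287 in the 4ss libraries, 29.4 and 77.8 in the 7ss libraries and 175 in the HH11 library. It was highest at HH11 and in both 7ss libraries, and the 7ss libraries had the lowest summed HOX level with and without the removed barcodes. CDX4 and EN1 were chosen for this description after their values were seen, and other members of their lists had other orders. Of the caudal zone genes, SP5 was highest in the 7ss libraries (124 and 121 CPM) and TBXT in HH5 replicate 2 (54.9 CPM). Of the forebrain and midbrain genes, HESX1 was highest in 1ss replicate 1 (560 CPM), while EN2 was highest at HH11 (83.6 CPM).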

How the data were processed

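Single-cell 3' UMI counts per gene and barcode were deposited by the authors as unnormalized matrices. The submitters' processing notes name Cell Ranger 6.1.1, the GRCg6a build and Seurat 4, and the study's methods describe an annotation with lengthened 3' ends for selected genes. Here, barcodes with 200 to 4000 genes and at most 40% of UMIs from 13 mitochondrial genes were kept, and doublets were removed by similarity to simulated pairs. Cells were clustered (leidenalg 0.10.2, resolution 0.2, 2000 variable genes without HOX genes, 15 components, 20 neighbours), and clusters were named from marker lists, so names are rebuilt and not the study's. UMI counts were summed over cells by library or class and compared by the quasi-likelihood test of edgeR 4.0.16, run in R 4.3.3 with limma 3.58.1, on TMM-scaled libraries, after its default low-count filter, with sums of at least 50 cells. DESeq2 1.42.0, no filter, other size factors, other cell sets, subtraction of 10% free RNA, finer clusters (resolution 0.5) and each library left out were tried as alternatives. HH11, with 1 library, entered no test. Shares have exact Clopper-Pearson and levels exact Poisson 95% intervals, and a count of 0 is given the floor of 3 counts. Scripts were tested on simulated data. The HOX members and the gene lists were chosen with earlier results of these data known. Named genes were, beside all HOX genes, the 6 largest rises and 6 largest falls by the rule in the text and each list member that passed; results that need certain genes are not reported here. The comparison of HOX-holding mesoderm-like cells was designed for 30 cells a sum and was run with 20.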

Additional observations from a re-analysis of the deposited data

Results flagged for a closer look

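The HH11 library entered no comparison, and its summed HOX level of 0.895 CPM was above the limit that a count of 0 allows. The barcodes left out as doublets or by the limits on genes and mitochondrial share also held HOX UMIs, 988 in 13811 barcodes or 6.90 CPM, and their HOX level was above that of the kept cells in 9 of 9 libraries (0.378 to 17.9 CPM). Of these UMIs, 487 were in 4ss replicate 2.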

How the results depend on the processing

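At 7ss the 3 HOX calls of 9 tested became 5 of 12 with all filtered barcodes, where 1543 of all 13070 genes were called. With doublets kept (an alternative chosen after seeing the data) they were 5 of 12, where 1493 of 12856 genes were called. With no filter they were 4 of 28, where 1798 of 15475 genes were called. The calls also depended on which library was left out, as given above, where a lone replicate is assumed to vary like the other stages. At 4ss the log2 fold change of HOXA9 was -4.17 to -1.23 with a library left out. In ectoderm-like sums at 7ss there were 2 calls with no filter and 0 to 2 with a library left out. With no filter the mesoderm-like comparison gave 9 calls and the endoderm-like comparison 6, against 0 with it, since no HOX gene was tested with the filter. The log2 fold change of HOXB5 at 7ss turned to 1.23 without HH5 replicate 1 (range -4.58 to 1.23); the cause was not tested. The count in HOX-holding mesoderm-like cells was 14 without the library block, 34 with DESeq2 and 50 to 103 with a library left out. Shares of cells with a HOX UMI moved as their depth changed: at 1000 UMIs they were 0.2995% at HH5, 0.80005% at 4ss and 0.0608% at 7ss, without thinning 1.02%, 1.65%, 0.0801% and, at HH11, 0.269%, and with doublets kept as well 1.17%, 2.02%, 0.141% and 0.413%. The HH11 sum was 2.08 CPM over all filtered barcodes, above the 1.71 CPM of 1ss replicate 1. Replicate numbers did not pair the libraries (correlations of deviations -0.223 to 0.0995 over 10214 genes in 6 pairs of stages), and a replicate block gave 3 HOX calls at 7ss, as without it. Thinning to 1000 UMIs and a minimum of 2 HOX UMIs in the HOX-holding comparison, and the ectoderm-like comparison, were not run for lack of cells. A HOX gene with under 3 UMIs in a library could not be told from 0 at this depth.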
